A study of Mus musculus with 12 samples.

Results

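The genes described here are 8 genes of the liver X receptor (LXR) pathway and of cholesterol efflux: Abcg1, Abca1, Nr1h2, Nr1h3, Mylip, Apoe, Lpcat3 and Pltp. They were taken as the rows of a table of raw counts for 55573 genes whose Ensembl identifiers map to these symbols. All 8 were found, and all 8 were among the 19174 genes with enough counts to be tested. They were chosen by the counts of Abcg1 in these libraries, which had been seen to be lower with vitamin B12, together with their known place in the pathway. For Abcg1 the B12 differences are therefore a description, without a test.

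RNA was sequenced from fibroblasts of mouse embryos (MEFs, cells of connective tissue, here from C57BL/6 embryos at E13.5) that carry doxycycline-inducible Oct4, Sox2, Klf4 and cMyc (OSKM), the factors that can return fibroblasts to pluripotency. Cells of 3 embryos, called clones 1, 2 and 3, were kept for 72 h in medium for induced pluripotent stem cells. Each clone gave 1 library of every group: MEF (no doxycycline), MEF+B12 (2 µM vitamin B12), OSKM (1 µg/ml doxycycline, doxy-OSKM in the labels) and OSKM+B12, which makes 12 libraries in 4 groups of 3. The cassette is in the cells of all groups, and since uninduced cells had no doxycycline, effects of the drug and of the factors cannot be told apart. The library titles of clone 1 carry a later year than those of clones 2 and 3.

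LXRs are nuclear receptors that are switched on by oxidised forms of cholesterol. Bound to DNA together with a retinoid X receptor (RXR), they raise the transcription of genes that move cholesterol out of the cell and onto lipoprotein particles, and of Mylip, which has the receptor for low-density lipoprotein degraded. The pathway is best known in macrophages and liver, and fibroblasts use it as well.

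Library totals were 56971244 to 79236795 counted read pairs. Pou5f1, which encodes Oct4, was at 0 to 0.468 CPM (counts scaled to a common library size) in the 6 libraries without doxycycline. In the induced libraries it was at 19.3, 18.5 and 2.86 CPM without B12 and at 20.7, 19.0 and 2.34 CPM with B12, for clones 1, 2 and 3 in turn, so clone 3 had the lowest level in both groups. All 10 fibroblast markers examined had counts in every library, with summed levels of 88192 to 141825 CPM. All 14 macrophage markers also had counts in every library, with sums of 1382 to 3474 CPM. A lower level in bulk RNA cannot be told apart from fewer cells that make the transcript. One library, OSKM of clone 1, was known to stand apart in its pseudogene counts, and each count of calls was therefore also made without it.

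LXR with RXR is known to bind pairs of the core motif AGGTCA on 1 strand with 4 bases between them, an arrangement called DR4. The RefSeq promoter windows on GRCm38.p6, each reaching from 250 bases before a gene's start to 50 bases after it, held 10 windows for 7 of the 8 genes. None was given for Abcg1. No window of these genes held a DR4 pair with at most 1 mismatch over its 12 letters on either strand, and 0.25% of all 32851 windows did. The closest pair among the members was in the Abca1 window, with 3 mismatches, starting 67 bases before the start of the gene. A pair as close as that was present in 21.9% of all windows. The closest pair had 4 mismatches in the windows of Nr1h2, Nr1h3, Lpcat3 and Apoe and 5 in those of Mylip and Pltp. A DR4-type element just ahead of the start is textbook knowledge for Abca1, and a match of letters is a description and not evidence of binding. The 250 bases before the start are shown for the Abca1 promoter, which holds the closest pair, for Apoe, the member that passed a test with B12, and for Nr1h3, the receptor gene that was higher with B12 in every clone. Each is written 5′ to 3′ on the strand of the gene, and capitals mark the motif copies of the closest pair in the window, which for Apoe lies after the start and so outside the stretch shown. Apoe had 3 windows and Nr1h3 had 2, of which the one reaching farthest upstream is shown. The RefSeq starts of Nr1h3 lie inside the gene as GENCODE annotates it, 7718 bases after its outermost start for the window shown, so that stretch is ahead of an internal start.
Abca1 promoter, chr4:53159896-53160145, minus strand: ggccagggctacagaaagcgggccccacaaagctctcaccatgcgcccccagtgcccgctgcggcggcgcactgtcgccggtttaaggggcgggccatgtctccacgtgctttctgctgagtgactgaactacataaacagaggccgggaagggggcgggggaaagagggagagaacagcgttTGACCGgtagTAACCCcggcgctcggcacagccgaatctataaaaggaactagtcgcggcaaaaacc
Apoe promoter, chr7:19699189-19699438, minus strand: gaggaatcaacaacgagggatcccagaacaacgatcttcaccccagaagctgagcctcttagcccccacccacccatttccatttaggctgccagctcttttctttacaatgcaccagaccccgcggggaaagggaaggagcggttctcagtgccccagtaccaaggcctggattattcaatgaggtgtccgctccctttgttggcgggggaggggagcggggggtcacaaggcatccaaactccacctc
Nr1h3 promoter, chr2:91195117-91195366, minus strand: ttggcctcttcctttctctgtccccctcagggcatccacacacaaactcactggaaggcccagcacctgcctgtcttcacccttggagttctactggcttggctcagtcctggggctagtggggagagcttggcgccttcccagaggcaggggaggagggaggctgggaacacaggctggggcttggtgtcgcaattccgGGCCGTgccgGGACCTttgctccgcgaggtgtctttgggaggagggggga

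The 8 genes differed widely in level. Per length of transcript, as RPKM (CPM per kilobase of exon), the mean over 12 libraries was 158 for Apoe, 46.2 for Pltp, 18.5 for Lpcat3, 15.5 for Nr1h2, 13.4 for Mylip, 7.85 for Abca1, 1.57 for Nr1h3 and 0.373 for Abcg1. Apoe lay above 98.4% of the protein-coding genes tested and Abcg1 above 16.2% of them. The ranges over libraries did not overlap between Apoe (95.4 to 224 RPKM), Pltp (29.9 to 61.5) and Lpcat3 (16.4 to 20.3). Those of the neighbours Lpcat3 and Nr1h2 overlapped, as did those of Nr1h2 and Mylip and of Mylip and Abca1. Nr1h3 (1.05 to 2.40 RPKM) lay below every library of Abca1, and Abcg1 (0.269 to 0.498 RPKM) below every library of Nr1h3. Of the receptors, Nr1h2 encodes LXRβ, which most tissues express, and Nr1h3 encodes LXRα, which is best known in liver, fat and macrophages.

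Abcg1 (ENSMUSG00000024030, GRCm38 chromosome 17, 31057675 to 31117988, plus strand) encodes an ABC transporter that passes cholesterol to high-density lipoprotein. In uninduced cells it was at 2.94, 3.10 and 2.93 CPM for clones 1, 2 and 3 without B12 and at 1.97, 2.22 and 2.46 CPM with B12. In induced cells it was at 3.22, 3.63 and 3.19 CPM without B12 and at 1.97, 2.98 and 2.01 CPM with B12. Every library with B12 lay below its partner of the same clone, and the groups with and without B12 did not overlap in either state, which held for 9.39% of all genes in MEF and 7.53% in OSKM. These are the values that chose the gene, and nothing is read from that count. The log2 difference with B12 was -0.43 ± 0.14 (SE from the fit over all 12 libraries of 3 clones) in MEF and -0.54 ± 0.14 in OSKM, and -0.49 ± 0.10 on average over both states, a fold of 0.714. By clone it ranged from -0.70 to -0.25 over 6 pairs of libraries, and over all alternatives of processing the average lay between -0.55 and -0.41. The values rest on 129 to 249 read pairs per library, which gives a counting error of 6.34% to 8.80% and covers neither amplification nor culture. Of the 31-base words of its transcripts, 1.45% also occur in transcripts of other genes, and a short rRNA gene annotated on the same strand, Gm25447, lies within Abcg1.

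**Figure D1:**
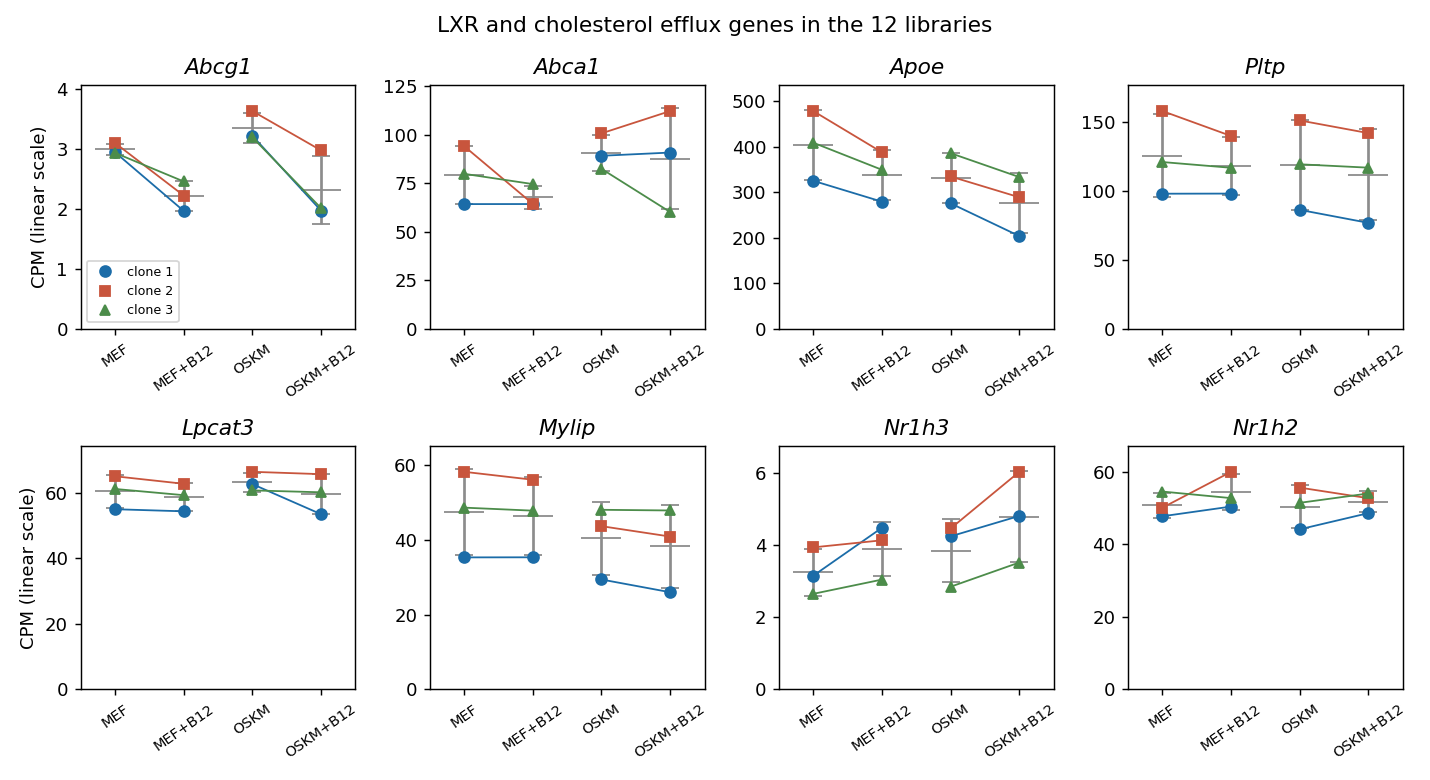
CPM of the 8 genes on linear axes that start at 0, for uninduced and induced cells without and with B12, with 1 symbol for each clone, lines joining the libraries of a clone without and with B12, and grey bars for the mean ± SD of 3 libraries. Abcg1 and Apoe were lower with B12 and Nr1h3 higher in each of the 6 pairs, and the groups of Abcg1, the gene chosen by these values, were the only ones of the 8 that did not overlap with and without B12.

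Abca1 (ENSMUSG00000015243, chromosome 4, 53030787 to 53159895, minus strand), which loads cholesterol onto lipid-poor apolipoprotein A-I, is the other transporter. Without doxycycline it was at 64.2, 94.1 and 79.8 CPM for clones 1, 2 and 3 and, with B12 added, at 64.2, 64.3 and 74.5 CPM. With doxycycline it was at 89.1, 101 and 82.4 CPM and, with B12 added, at 90.8, 112 and 60.1 CPM. The groups overlapped, and B12 went with a lower value in 3 of 6 pairs and a higher one in 3. Its average B12 difference was -0.14 ± 0.12 on the log2 scale (95% interval -0.39 to 0.12) with an adjusted p of 0.628 in the quasi-likelihood test of edgeR.

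Among the members, Apoe was the one whose change with B12 passed the test. Apoe (ENSMUSG00000002985, chromosome 7, 19696109 to 19699188, minus strand) encodes apolipoprotein E, a carrier that takes up effluxed cholesterol. In MEF it was at 325, 479 and 409 CPM for clones 1, 2 and 3, against 279.5, 388 and 350 CPM in MEF+B12. In OSKM it was at 276, 335 and 386 CPM, against 204, 289 and 334 CPM in OSKM+B12. The clones differed by more than the groups did, so the groups overlapped, but the library with B12 was the lower of the pair in 6 of 6 pairs. Genes of further lists described below, such as Arl4c and Scd1, also kept 1 direction in 6 of 6 pairs, with B12 and with induction. The share of all genes that did so was not counted, here or for the members below. On average over both states Apoe fell by 0.27 ± 0.06 on the log2 scale (95% interval -0.41 to -0.13, a fold of 0.830), with an adjusted p of 0.0384. The single comparisons did not pass, at -0.25 ± 0.09 in MEF (adjusted p = 0.300) and -0.28 ± 0.09 in OSKM (adjusted p = 0.252). The average lost its call without clone 1 (adjusted p = 0.256), without clone 2 (0.257), without the OSKM library of clone 1 (0.0765) and without the clone as a block (0.892), with differences between -0.27 and -0.24.

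Beside Apoe, 6 members other than Abcg1 did not pass on average over both states, which makes 1 of 7, where 3.84% of all genes tested were called. In MEF alone 0 of 7 were called (1.38% of all genes) and in OSKM alone 0 of 7 (1.06%). At an unadjusted p under 0.05, 2 of the 7, Apoe and Nr1h3, were counted in each of these 3 comparisons, where 15.5% of all genes were on average over both states, 10.3% in MEF and 9.82% in OSKM. DESeq2 called 1 of the 7 (Apoe) in the average and 0 in each state. The median log2 difference of the 7 was -0.06 on average over both states, against -0.01 over all genes, and 5 of the 7 were lower with B12, as were 55.1% of all genes.

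The receptors lay on the other side of 0. Nr1h3 (ENSMUSG00000002108, chromosome 2, 91184061 to 91202834, minus strand) was at 3.15, 3.94 and 2.65 CPM in MEF and at 4.48, 4.13 and 3.04 CPM in MEF+B12. In induced cells it was at 4.24, 4.46 and 2.85 CPM without B12 and at 4.81, 6.03 and 3.52 CPM with B12. The groups overlapped, and the library with B12 was the higher in 6 of 6 pairs. This also held for Npc1 and Soat1, genes of another list, and the share of all genes was not counted. The average log2 difference of Nr1h3 was 0.29 ± 0.08, and its adjusted p of 0.0776 missed the threshold of 0.05. With library totals in place of TMM scaling it passed, at 0.31 with an adjusted p of 0.0469. A noncoding transcript annotated on the same strand, Gm13783, overlaps Nr1h3, and reads of the shared stretch cannot be told apart. Nr1h2 (ENSMUSG00000060601, chromosome 7, 44549616 to 44553951, minus strand) was at 47.8, 50.2 and 54.6 CPM in MEF and 50.5, 60.1 and 52.8 CPM in MEF+B12, and at 44.2, 55.7 and 51.5 CPM in OSKM and 48.7, 52.8 and 54.1 CPM in OSKM+B12. It was higher with B12 in 4 of 6 pairs, by 0.07 ± 0.04 on average (adjusted p = 0.486).

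The remaining members are a further 3 targets. Mylip (ENSMUSG00000038175, chromosome 13, 45389742 to 45412022, plus strand), the E3 ubiquitin ligase also called IDOL, was at 35.4, 58.3 and 48.7 CPM in MEF and 35.4, 56.2 and 47.9 CPM in MEF+B12, and at 29.4, 43.7 and 48.1 CPM in OSKM and 26.0, 40.9 and 47.9 CPM in OSKM+B12. Its average B12 difference was -0.06 ± 0.06 (adjusted p = 0.722). Lpcat3 (ENSMUSG00000004270, chromosome 6, 124663027 to 124704418, plus strand) builds polyunsaturated phosphatidylcholine into membranes. It was at 55.0, 65.1 and 61.2 CPM in MEF and 54.4, 62.8 and 59.3 CPM in MEF+B12, and at 62.7, 66.4 and 60.8 CPM in OSKM and 53.5, 65.7 and 60.2 CPM in OSKM+B12. It was lower with B12 in 6 of 6 pairs, by -0.23 to -0.01 on the log2 scale, yet its average of -0.06 ± 0.04 had an adjusted p of 0.440. Pltp (ENSMUSG00000017754, chromosome 2, 164839518 to 164857711, minus strand) encodes the phospholipid transfer protein of plasma. It was at 97.7, 158 and 121 CPM in MEF and 97.8, 139.5 and 117 CPM in MEF+B12, and at 86.0, 151 and 119 CPM in OSKM and 76.6, 142 and 117 CPM in OSKM+B12. The clones of Pltp kept their order in every group, with clone 2 the highest and clone 1 the lowest, and its average B12 difference was -0.08 ± 0.05 (adjusted p = 0.457).

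**Figure D2:**
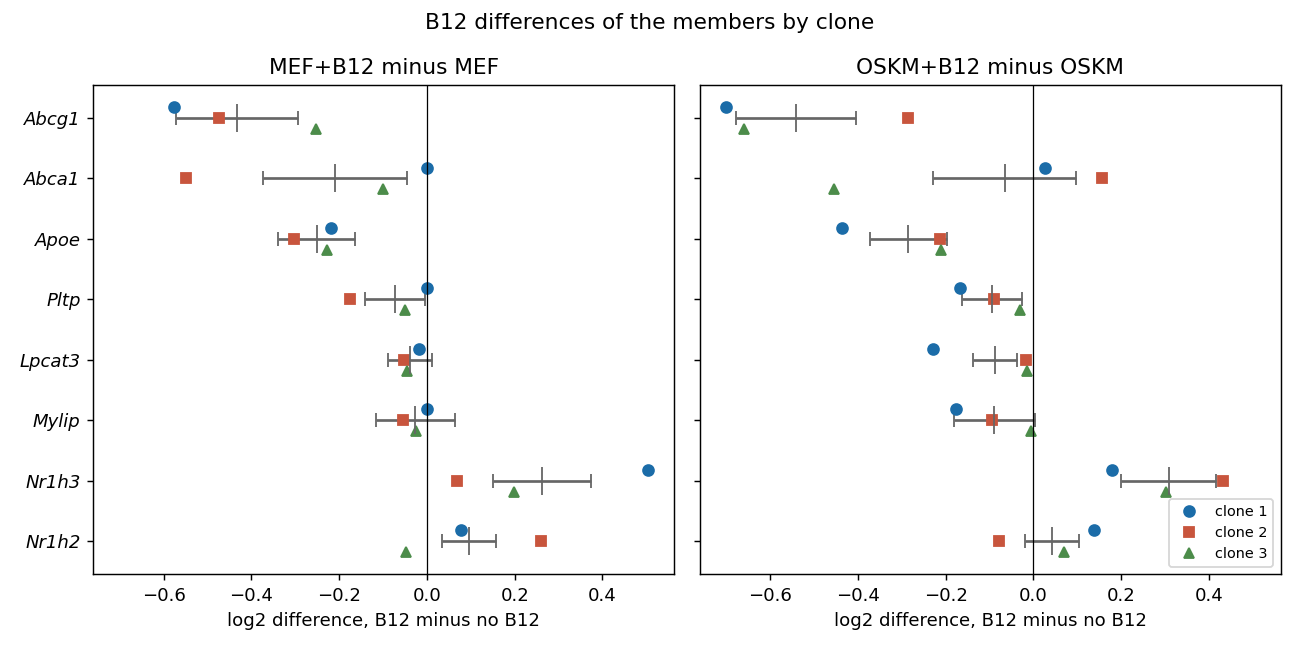
Log2 differences between libraries with and without B12 for the 8 genes, in uninduced cells on the left and in induced cells on the right, with 1 symbol for each clone and grey bars for the fitted difference ± SE. Abcg1, Apoe and Lpcat3 lay below 0 and Nr1h3 above 0 in all 3 clones of both panels, and the Abca1 clones lay on both sides of 0 in induced cells.

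Whether B12 acted differently in induced and uninduced cells was tested as the B12 difference in OSKM minus that in MEF. Of the 7 members other than Abcg1, 0 were called by edgeR, as were 0% of all genes tested, and 0 had an unadjusted p under 0.05. DESeq2 also called 0 members. For Apoe this difference of differences was -0.03 ± 0.12 (95% interval -0.31 to 0.24). For Abcg1 it was -0.11 ± 0.20, which rests on the values that chose the gene and is a description, without a test. The interval of Apoe is wider than its B12 differences themselves.

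With induction no member passed the test. The count was 0 of 8 in OSKM against MEF, where 0.0730% of all genes were called, and 0 of 8 in OSKM+B12 against MEF+B12, where 0.104% were. At an unadjusted p under 0.05 these counts were 2 and 3 of 8, where 19.0% and 14.9% of all genes were counted, and DESeq2 called 0 and 1 (Apoe, adjusted p = 0.0327). Apoe was lower in induced cells in 6 of 6 pairs, by -0.28 ± 0.09 without B12 (adjusted p = 0.169) and -0.31 ± 0.09 with B12 (adjusted p = 0.180). Mylip was lower by -0.23 ± 0.09 (adjusted p = 0.216) and -0.29 ± 0.09 (adjusted p = 0.188). Nr1h3 was higher in 6 of 6 pairs, by 0.24 ± 0.11 (adjusted p = 0.276) and 0.28 ± 0.11 (adjusted p = 0.255). The libraries of Abcg1 did not overlap between OSKM and MEF, with the 3 induced ones the higher, as the 1 of 8 members for which this held, where 9.09% of all genes tested did not overlap. Between OSKM+B12 and MEF+B12 this held for 0 of 8, against 10.5% of all genes. Its difference of 0.16 ± 0.14 had an adjusted p of 0.546, and with B12 it was 0.05 ± 0.14 (adjusted p = 0.915). Abca1 was at 0.20 ± 0.16 (adjusted p = 0.538) without and 0.34 ± 0.17 (adjusted p = 0.367) with B12.

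The response to induction depended on the clone for Mylip. Its log2 difference between OSKM and MEF was -0.26, -0.41 and -0.02 in clones 1, 2 and 3, and between OSKM+B12 and MEF+B12 it was -0.44, -0.46 and 0.0015. Clone 3 thus stayed at its uninduced level while the other two lay lower. An F test of whether the response differed between the 3 clones gave Mylip an adjusted p of 0.0379 and made it the 1 of 8 members called, where 2.15% of all genes were. Leaving out clone 2 (adjusted p = 0.165) or clone 3 (0.887), or scaling by library totals (0.0625), ended that call. Apoe had -0.24, -0.52 and -0.08 without B12 and -0.46, -0.42 and -0.07 with it, with an adjusted p of 0.105 for the clones, and DESeq2 called it at 0.0150. Without clone 1 Apoe passed at 0.00985, and without the OSKM library of clone 1 at 0.00728. In the fit without clone 3, Mylip was lower with induction by 0.34 (adjusted p = 0.0186) and Apoe by 0.37 (adjusted p = 0.0236). With B12 Mylip fell by 0.45 (adjusted p = 0.00653) and Apoe by 0.44 (adjusted p = 0.0136), while Abca1 rose by 0.64 (adjusted p = 0.0169). That fit leaves out the clone nearest to 0 for Mylip and Apoe, and the share of all genes called in it is not given here. Clone 3 was also the clone with the lowest Pou5f1, and the summed fibroblast markers differed by -0.40, -0.50 and -0.05 between OSKM and MEF in clones 1, 2 and 3. Most of that sum was Col1a1, Col1a2 and Col3a1. In clone 1 Dcn, Thy1, Fn1, Lum and Vim went the other way, by 0.41, 0.25, 0.18, 0.18 and 0.16. The summed endothelial markers, at 41.9 to 46.6 CPM in MEF and 53.1 to 145 CPM in OSKM, differed by 1.76, 1.42 and 0.34 without B12 and by 1.71, 1.64 and 0.21 with it, again with clone 3 nearest to 0, and 0 to 2 of the 7 markers were at 0 in a library. Most of that sum was 1 gene, Tek, at 35.5 to 42.3 CPM in MEF and 46.1 to 139 CPM in OSKM. Cdh5 also rose in each clone, while Kdr differed by -0.05, -0.09 and 0.07 without B12. Pecam1, Tie1, Emcn and Cldn5 reached at most 0.279 CPM in any library. The summed macrophage markers differed by -0.11, -0.22 and 0.04 without B12 and by -0.29, -0.10 and 0.07 with it. In the test of the clones 2 of 14 macrophage, 0 of 10 fibroblast and 2 of 3 endothelial markers tested were called, against 2.15% of all genes. The part of any of these in the result was not tested.

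**Figure D3:**
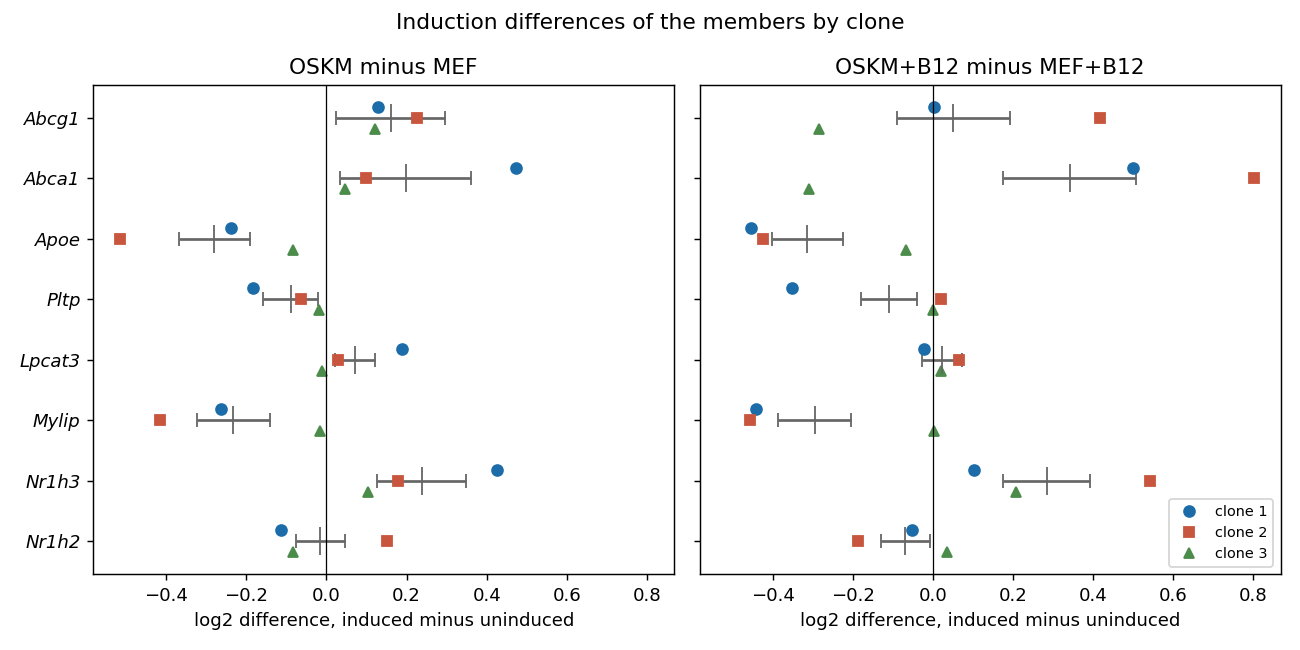
Log2 differences between induced and uninduced libraries for the 8 genes, without B12 on the left and with B12 on the right, with 1 symbol for each clone and grey bars for the fitted difference ± SE. For Mylip and Apoe clone 3 lay nearest to 0 in both panels, and for Abca1 the clones of the right panel ranged from -0.31 to 0.80.

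The wider pathway was read from further gene lists. Over all genes tested, 3.84% were called with B12 on average over both states and 2.15% in the test of the clones. Of 6 LXR partners and cofactors 0 were called with B12. The RXR gene of largest difference, Rxrg, had -0.54 ± 0.34 (adjusted p = 0.494) on 4 to 27 counts per library. Of 17 other LXR targets 11 could be tested and 1 was called with B12, Cd5l, which encodes a protein secreted by macrophages and rose by 1.00 ± 0.20 on the log2 scale (adjusted p = 0.0191). Cd5l also rose with induction, by 2.59 ± 0.31 without B12 (adjusted p = 0.0112) and 2.19 ± 0.27 with it (adjusted p = 0.0155). Scd1, a desaturase gene, had -0.17 ± 0.07 with B12 (adjusted p = 0.285), and Arl4c, a small GTPase gene, had -0.14 ± 0.09 (adjusted p = 0.505). These latter 2 passed the test of the clones, with adjusted p-values of 0.0337 and 0.0125. Of 6 genes that make or inactivate oxysterols 0 were called with B12, and 1, Cyp7b1, passed the test of the clones (adjusted p = 0.0340).

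Cholesterol uptake, storage and export beyond the members was covered by 17 further genes. Of 16 tested, 4 were called higher with B12 on average and 0 lower, and these 4 were also called in each state. Of all genes tested 3.84% were called on average, 663 higher and 73 lower, with 1.38% called in MEF and 1.06% in OSKM. Cd36, the fatty acid and oxidised lipoprotein receptor, went from 49.0 ± 15.3 to 88.6 ± 18.3 CPM in MEF and from 49.97 ± 18.5 to 87.5 ± 17.3 CPM in OSKM (SD, n = 3), on average by 0.87 ± 0.10 on the log2 scale (adjusted p = 0.000658). Msr1, the macrophage scavenger receptor, rose by 0.84 ± 0.07 (adjusted p = 0.000173). Gramd1b, which carries cholesterol from the plasma membrane to the endoplasmic reticulum, rose by 0.51 ± 0.06 (adjusted p = 0.000707), and Nceh1, a cholesteryl ester hydrolase, by 0.43 ± 0.05 (adjusted p = 0.000944). Of 13 genes of SREBP2 and cholesterol synthesis, 0 were called, and the ones of largest difference, Sc5d and Hmgcs1, had -0.10 ± 0.03 (adjusted p = 0.181) and -0.08 ± 0.04 (adjusted p = 0.367). The list's median was -0.02, against -0.01 over all genes.

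Macrophage markers moved with B12 in the same libraries. Of the 14, 12 were called higher on average over both states and 0 lower, with a median difference of 0.54. Of all genes tested 663 were called higher and 73 lower. Mrc1 rose by 0.86 ± 0.08 (adjusted p = 0.000206), Csf1r by 0.71 ± 0.08 (adjusted p = 0.000773), Cd68 by 0.67 ± 0.10 (adjusted p = 0.00429) and Adgre1 by 0.63 ± 0.07 (adjusted p = 0.000778). Cx3cr1, a marker of the same list, had -0.45 ± 0.20 (adjusted p = 0.296). The summed markers were at 1382 to 2629 CPM in MEF and 2083 to 3474 CPM in MEF+B12, and at 1419 to 2443 CPM in OSKM and 2180 to 2839 CPM in OSKM+B12, and none was at 0 in any library. Within clones the sum differed by 0.40, 0.63 and 0.59 on the log2 scale in MEF and by 0.22, 0.75 and 0.62 in OSKM. Macrophages are known to express Apoe, Abca1, Abcg1 and Nr1h3, as well as Cd36, Msr1, Nceh1 and Cd5l. In these pairs Nr1h3 was higher where the markers were higher, and Apoe and Abcg1 were lower. The part of these cells in any of the differences was not tested. Of 10 fibroblast markers 0 were called with B12, and all 10 were lower, as were 55.1% of all genes. Fn1 (-0.27 ± 0.10, adjusted p = 0.219) and Thy1 (-0.15 ± 0.04, adjusted p = 0.0979) differed most. Endothelial markers (3 of 7 tested) and adipocyte markers (1 of 6 tested, Fabp4 at -0.10 ± 0.10, adjusted p = 0.683) had 0 calls with B12, although Tek and Cdh5 passed the test of the clones.

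**Figure D4:**
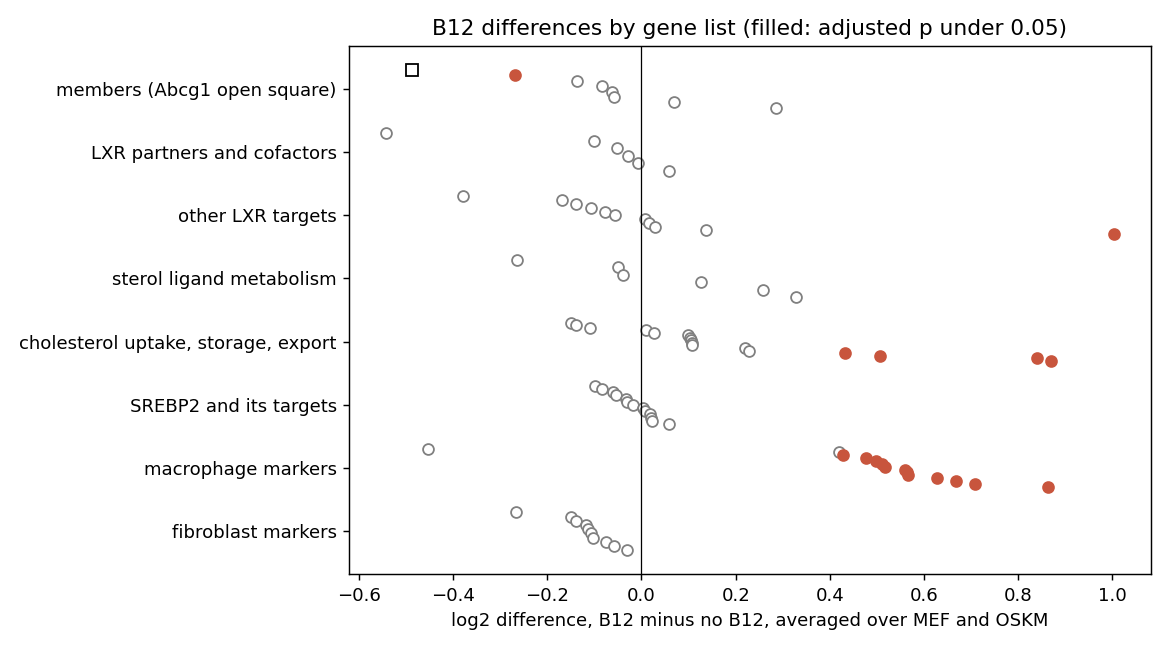
Log2 differences with B12, averaged over uninduced and induced cells, with 1 point for each gene tested of 8 lists, filled where the adjusted p was under 0.05. The members held 1 filled point, Apoe, below 0, beside the open square of Abcg1, for which no test with B12 is reported, and the filled points of the uptake list, of the other LXR targets and of the macrophage markers all lay above 0.

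The pattern of Abcg1 over the 12 libraries was compared with 11922 genes by the Pearson correlation of log2 CPM centred within each clone. Among the genes most like it were Gulp1 (r = 0.958), which encodes an adaptor for engulfment of dying cells, Ube3b (r = 0.955), Zfp62 (r = 0.948) and Ptpn21 (r = 0.944). Gulp1 was at 43.0 to 47.4 CPM in MEF and 38.4 to 45.6 CPM in MEF+B12, and at 46.6 to 50.2 CPM in OSKM and 41.2 to 44.4 CPM in OSKM+B12. It was chosen by its likeness to Abcg1, and nothing is read from its lower level with B12 in each clone. Among the members the likeness to Abcg1 was 0.693 for Lpcat3, 0.546 for Abca1, 0.338 for Apoe, 0.334 for Pltp, -0.125 for Mylip, -0.415 for Nr1h3 and -0.623 for Nr1h2. Between other members it was highest for Apoe with Mylip (r = 0.876) and lowest for Apoe with Nr1h3 (r = -0.862). The 12 points share the libraries and the clones, and the correlations are a description.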

How the data were processed

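Poly(A) RNA of 12 MEF cultures was sequenced with a strand-specific kit. The authors aligned the read pairs with STAR 2.5.2 to mm10 (GRCm38) and deposited raw counts per gene, made in a strand-specific mode and summed over flow cells. Symbols and coordinates were taken from GENCODE M21 (GRCm38, 1-based), which matched 55480 of 55573 identifiers. CPM used TMM factors of 0.934 to 1.06. Genes were tested with edgeR 4.0.16 (R 4.3.3) by its quasi-likelihood F test, with filterByExpr by group, terms for clone and group, Benjamini-Hochberg adjustment over 19174 genes and a threshold of 0.05. ± after a log2 difference is its SE from that fit over 12 libraries. The clone was a block since the labels give each embryo 1 library of every group, and libraries of 1 clone deviated together (r of 0.270 to 0.687 over 18 pairs, against at most 0.170 over 36 pairs of different clone and group). A further fit tested clone by induction. Alternatives were DESeq2 1.42.0, other scalings and filters, fewer libraries and no block. On simulated counts the fit was checked before use. Members and gene lists were chosen with earlier results of these data known. Named were all members, in each other list up to 4 genes that passed a test (or up to 2 if none did) by size of the average B12 difference, and the 5 genes most like Abcg1 with a mean log2 CPM of at least 1, and 2 of the genes so named are not reported here. The labels give doxycycline as 1 µg/ml, another unit than the study's methods.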

Additional observations from a re-analysis of the deposited data

Results flagged for a closer look

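Mylip responded to induction differently in the 3 clones (adjusted p = 0.0379, F test of edgeR), and the log2 differences were -0.26, -0.41 and -0.02 in clones 1, 2 and 3 without B12. The test of the difference itself passed, as it did for 2.15% of all genes. That call was lost without clone 2, without clone 3 and with library totals, and over the alternatives its adjusted p ranged from 0.00487 to 0.887. Clone 3 also had the lowest Pou5f1 (2.86 CPM in OSKM), and the part of that in the result was not tested.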

How the results depend on the processing

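In 598 of 657 values set against the main one (each member and each count of members), the 11 alternatives gave the same result, and the cause of the exceptions was not tested. For a member the same result meant an unchanged direction and side of the threshold, and in the test of the clones, which has no direction, the side alone. For the B12 differences of Abcg1 it meant an unchanged direction and a shift smaller than the SD over clones. For a count it meant an equal number. Without a low-count filter 1 member (Apoe) was called in OSKM against MEF, 1 (Apoe) in OSKM+B12 against MEF+B12 and 3 (Mylip, Apoe and Abca1) in the test of the clones. DESeq2 called 1 (Apoe) in OSKM+B12 against MEF+B12 and 2 (Mylip and Apoe) in the test of the clones. With only the libraries compared 1 (Apoe, adjusted p = 0.00372) was called with B12 in MEF. Library totals gave 2 (Apoe and Nr1h3) in the B12 average and 0 in the test of the clones, and turned Nr1h2 in OSKM against MEF to 0.038 and Mylip with B12 in MEF to 0.0071. Without the OSKM library of clone 1, 0 were called in the B12 average and 2 (Mylip and Apoe) in the test of the clones, and the sign turned for Nr1h2 in OSKM against MEF (0.031) and with B12 in OSKM (-0.00036) and for the Lpcat3 interaction (0.012). Without the clone block 0 members were called in every comparison, in the B12 average 0 against 1, and of all genes 90 were called there against 736. For the other alternatives, those without 1 clone included, the share of all genes called is not given here.

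Leaving out 1 clone at a time, members called ranged from 0 to 2 in OSKM against MEF, 0 to 3 in OSKM+B12 against MEF+B12, 0 to 1 in the B12 average and 0 to 2 in the test of the clones. Since the share of all genes called in those fits is not given here, nothing is read from these counts. The signs that turned were those of small differences: Nr1h2 in OSKM against MEF ranged from -0.091 to 0.034 and with B12 in OSKM from -0.0048 to 0.098, and Abca1 with B12 in OSKM from -0.19 to 0.10. In OSKM+B12 against MEF+B12, Abcg1 ranged from -0.15 to 0.22, Lpcat3 from -0.00075 to 0.039 and Pltp from -0.17 to 0.0066. Interactions ranged from -0.28 to 0.041 for Abcg1, -0.14 to 0.36 for Abca1, -0.14 to 0.081 for Nr1h2, -0.12 to 0.23 for Nr1h3, -0.10 to 0.049 for Apoe, -0.099 to 0.026 for Lpcat3 and -0.080 to 0.046 for Pltp. With 3 clones a group and 129 to 375 read pairs for Abcg1 and Nr1h3 per library, differences of the size of these ranges were not resolved. The alternative of only the libraries compared could not be fitted for the B12 average, the interaction and the clones, which use all 12, and the test of the clones could not be fitted without the block.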
